A study of Arabidopsis thaliana with 47 samples.

Results

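The genes of the plastid and mitochondrial genomes of Arabidopsis thaliana were examined in 9 RNA-seq libraries, 3 of wild type, 3 labelled nrpe1 and 3 labelled hex. They were chosen by identifier alone: 133 begin with ATCG, for the plastid genome, and 146 with ATMG, for the mitochondrial genome. These 279 are part of 33602 genes with a value, of which 33323 are nuclear. All plants were of the Columbia-0 background, grown at 22 °C with 16 h of light and 8 h of dark. The labels name floral tissue of 5 to 6 weeks and, in another place, leaves of seedlings of 3 weeks. NRPE1 is the largest subunit of RNA polymerase V, a plant polymerase that acts in RNA-directed DNA methylation. The label hex stands for a mutant of the 6 genes MORC1, MORC2, MORC4, MORC5, MORC6 and MORC7, whose products are ATPases that act in gene silencing. Values are TPM, a measure of transcript abundance that is per length and scaled to the same total in each library, so levels of different genes can be set side by side.

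Both organelles descend from bacteria and kept a small genome of their own. The plastid genome encodes subunits of the photosystems, of the cytochrome b6f complex, of the ATP synthase and of Rubisco, along with ribosomal proteins and the core of the plastid RNA polymerase. The mitochondrial genome encodes subunits of the respiratory complexes and of ribosomes. Most other organelle proteins are encoded in the nucleus and imported. The libraries were made with a kit that selects RNA with a poly(A) tail, and most mature organelle transcripts carry no stable tail, so the TPM describe what this selection let through and not the abundance of organelle RNA in the plant.

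The libraries went against some of their labels. MORC1 was at 2.06, 2.04 and 1.77 TPM in the nrpe1-labelled libraries, against 7.42 to 8.08 in wild type, and MORC2, MORC6 and MORC7 were also lower there (adjusted p of 0.0234 or less, limma), while MORC4 was higher (12.35 to 13.82 against 4.4 to 5.68). NRPE1 was at 1.08 to 1.73 TPM in the nrpe1-labelled libraries, 1.27 to 1.74 in wild type and 0.5 to 0.62 in the hex-labelled libraries. The groups are therefore named by their labels throughout, and every direction below is that of the libraries so labelled. Transcripts of floral tissue, which the labels name beside leaves, were scarce: 8 floral genes summed to 1.8 to 3.83 TPM and LFY was at 0 in all 9 libraries. A list of 18 nuclear photosynthesis genes summed to between 182289.92 and 212977.64 TPM. Library nrpe1 replicate 3 held the most pollen transcripts: a list of 9 pollen and tapetum genes summed to 80.46 TPM in it against 0.28 to 2.13 elsewhere, while the tapetum genes A9, LTP12 and GRP17 were at 0, 0 and 0.03 in it. On the first principal component of all tested genes, libraries nrpe1 replicates 2 and 3 (-0.465 and -0.646) and hex replicate 3 (-0.153) were the lowest. Library nrpe1 replicate 1 (-0.036) lay between these 3 and the other 5 (0.219 to 0.286), so the line drawn below the 3 is not sharp. They are called here the 3 libraries that stood apart, and several results that rest on them are given with and without them. The component held 65.5% of the variance of all tested genes, so a gene can be extreme in these 3 libraries by that choice alone. How many genes were so was not counted. Leaving these libraries out keeps 1 library labelled nrpe1, and leaving out nrpe1 replicate 1 as well would keep none.

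Plastid genes were detected far more often than mitochondrial genes. Of the 133 plastid genes, 118 (88.7%) were above 0 TPM in at least 1 library, 81 were above 0 in all 9, and 15 were listed at 0 in all 9. Of the 146 mitochondrial genes, 115 (78.8%) were above 0 in at least 1 library, 27 were above 0 in all 9, and 31 were listed at 0 throughout. The median of the mean TPM was 1.597 for plastid and 0.062 for mitochondrial genes. A mean of at least 1 TPM was reached by 77 plastid and 11 mitochondrial genes, and a mean of at least 10 by 18 and 0. With the requirement of at least 1 TPM in at least 3 libraries, 85 plastid genes (63.9%), 10 mitochondrial genes (6.85%) and 17364 nuclear genes (52.1%) could be tested. Names were found for 36 plastid and 27 mitochondrial genes, and the others are given by identifier. Depth cannot be read from TPM, so a listed 0 is not evidence of absence.

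Many of these genes have a second, nearly identical copy, and this decides what a value can mean. In the TAIR10.1 assembly, 73.0% of the mitochondrial genome (367808 bp) matched nuclear DNA at 95% identity or more, almost all of it (72.9%) on chromosome 2 between 3239038 and 3509765, a known insertion of mitochondrial DNA. Of the plastid genome (154478 bp), 4.35% did so, but the plastid genome itself carries an inverted repeat. Of 46 chromosome 2 genes annotated as matching a mitochondrial gene, 45 matched the mitochondrial genome at 95% identity over at least 80% of their length, with a median identity of 99.9725%. In 8 of these pairs the nuclear and the mitochondrial gene had the same TPM in all 9 libraries. Most of these 8 were near 0, and the highest means were 7.027 TPM for rps12, 0.692 for atp8 and 0.423 for ATMG00590. Likewise 13 pairs of plastid genes had identical values throughout. In all, 29 plastid and 48 mitochondrial genes had an identified copy, and genes whose position was not used here may have others. Reads from stretches that are identical between copies cannot be told apart. Whether a pair had equal values did not follow from its identity in this assembly. The genes nad3 and atp9 matched their copies at every base and had different values, whereas ATMG00590 differed from its copy at some bases and had the same values. The reason was not tested.

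The coding sequences of 3 such mitochondrial genes are shown because their values turn on the copy. Each was identical to its nuclear copy over its whole length, and the first 60 bases stand here 5′ to 3′ with the start codon in capitals. The nad3 sequence, of a complex I subunit, is 357 bp at chr2:3270008-3270364 (plus strand, gene AT2G07751) and at 288044 to 288400 of the mitochondrial genome. The rps12 sequence, of a ribosomal protein, is 378 bp at chr2:3270410-3270787 (plus strand, AT2G07675) and at 288446 to 288823. The atp9 sequence, of the membrane ring of the ATP synthase, is 258 bp at chr2:3251856-3252113 (minus strand, AT2G07671) and at 270961 to 271218. Sequences and positions are from RefSeq, build TAIR10.1, whose mitochondrial sequence is not the one of the TAIR10 build that the submitters name, so identity in the reference behind the TPM was not checked.
nad3: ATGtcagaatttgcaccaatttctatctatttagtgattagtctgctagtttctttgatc
rps12: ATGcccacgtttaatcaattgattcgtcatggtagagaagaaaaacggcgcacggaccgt
atp9: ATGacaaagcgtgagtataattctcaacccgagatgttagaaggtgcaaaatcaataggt

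The 3 pairs divided their values in 3 ways. The rps12 gene ATMG00980 and its copy AT2G07675 were equal in every library. The nad3 gene ATMG00990 was at 9.75 TPM in nrpe1 replicate 1 and listed at 0 in the other 8 libraries, whereas its copy AT2G07751 was listed at 0 in nrpe1 replicate 1 and at 3.7 to 8.53 TPM in the others. The whole value of nad3 thus lay on 1 copy or the other in each library. The atp9 copy AT2G07671 was at 1.64, 1.18 and 2.58 TPM in the wild-type libraries, 0.9, 3.16 and 4.77 in the nrpe1-labelled libraries and 1.83, 1.13 and 1.71 in the hex-labelled libraries, and it was above the mitochondrial atp9 in 8 of the 9 libraries, the exception being nrpe1 replicate 1.

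**Figure D1:**
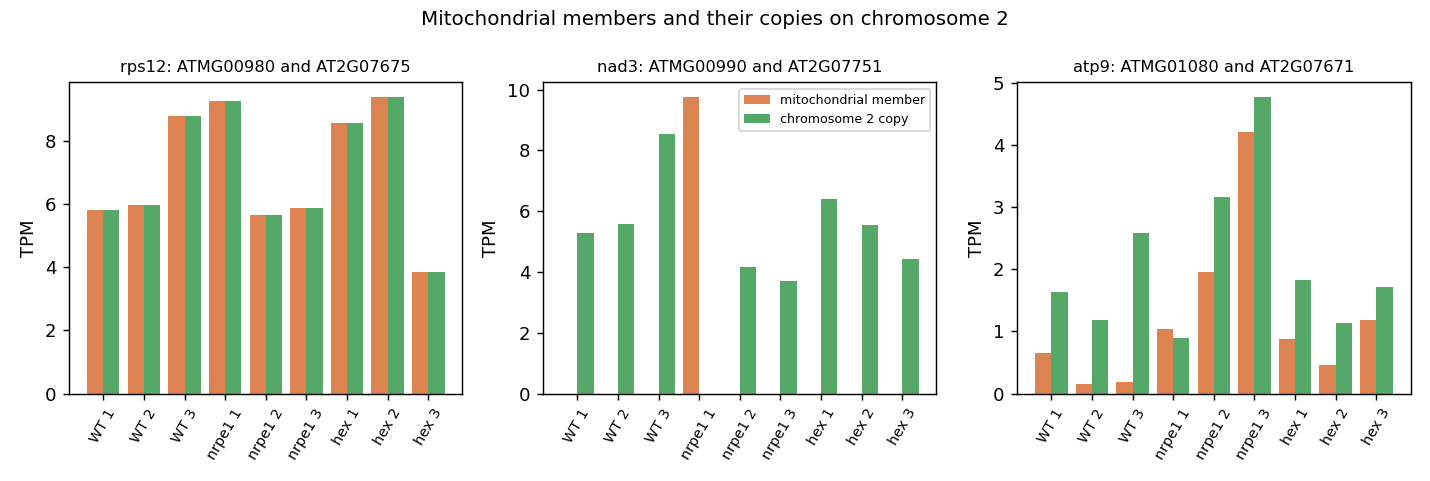
TPM (y axis) of the mitochondrial genes rps12, nad3 and atp9 and of their identical copies on chromosome 2 in each of the 9 libraries (x axis), with 1 bar per gene. The bars of rps12 are equal in every library, nad3 lies on 1 copy in each library, and for atp9 the nuclear copy has the higher bar in 8 of 9 libraries.

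A few genes held most of the plastid signal. The first 4 made up 57.4% of the summed mean plastid TPM and the first 10 made up 71.0%. The first 4 are 2 pairs with identical values: ATCG00920 and ATCG01210 (mean 164.668 TPM each) and ATCG00950 and ATCG01180 (154.148 each). Neither pair has a name in the sources used, so whether they encode proteins or ribosomal RNA (rRNA) was not settled. ATCG00920 was at 220.25, 111.82 and 185.62 TPM in the wild-type libraries, 134.41, 98.67 and 76.69 in the nrpe1-labelled libraries, and 157.37, 223.19 and 273.99 in the hex-labelled libraries. The libraries labelled hex were all above those labelled nrpe1, and wild type overlapped both. ATCG00950 was at 205.9, 124.73 and 172.15 TPM in the wild-type libraries, 153.67, 103.05 and 92.53 in the nrpe1-labelled libraries, and 151.1, 203.01 and 181.19 in the hex-labelled libraries, with overlap between every 2 groups. A further pair, ATCG00960 and ATCG01170, had a mean of 16.847 TPM each and ranged from 7.11 in nrpe1 replicate 3 to 24.8 in hex replicate 2.

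Among plastid genes without a partner of identical value, ATCG00020 led with a mean of 38.804 TPM, followed by the ATP synthase genes atpE (29.976) and atpB (28.157) and by rbcL (21.222), which encodes the large subunit of Rubisco. The genes atpE and atpB, for subunits of the catalytic part of the enzyme, lay between 23.68 and 34.72 TPM in every library, and atpA, for another subunit of that part, between 6.12 and 8.51. The rbcL gene was at 20.75, 18.07 and 21.41 TPM in the wild-type libraries, 24.46, 20.39 and 18.79 in the nrpe1-labelled libraries and 20.84, 28.86 and 17.43 in the hex-labelled libraries, with overlap between all groups. Of the photosystem genes with a name, psbC and psbB (core antenna proteins of photosystem II) had means of 10.667 and 7.869 TPM, and psaB (reaction centre of photosystem I) and psaC (its iron-sulfur protein) had 7.156 and 2.073. The highest ribosomal protein genes were the rpl2 pair (15.171 each), rpl16 (10.377) and rps14 (10.3). The genes rpoA, rpoB, rpoC1 and rpoC2, for the core of the plastid-encoded RNA polymerase, had means of 1.332, 5.73, 3.269 and 0.921 TPM. At the low end, accD, for a subunit of acetyl-CoA carboxylase, was at 0.03 to 0.29 TPM, whereas clpP, for a protease subunit, was at 3.27 to 5.06.

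Mitochondrial levels were lower. The first gene made up 16.5% of the summed mean mitochondrial TPM and the first 2 made up 30.0%, against 14.8% and 29.6% for plastid genes. The first 4 made up 49.2% and the first 10 made up 67.0%, both below the plastid shares. The highest was ATMG01390, at 7.85, 5.03 and 7.67 TPM in the wild-type libraries, 9.01, 9.29 and 12.56 in the nrpe1-labelled libraries, and 7.01, 8.61 and 10.09 in the hex-labelled libraries. Libraries labelled nrpe1 were all above wild type, and those labelled hex overlapped both. Whether ATMG01390 encodes a protein or rRNA was not settled either. The next were rps12 (3.86 to 9.4 TPM), ATMG00020 (5.28 to 8.47) and ATMG01000 (1.48 to 5.28), none of which separated any 2 groups. Apart from nad3 in nrpe1 replicate 1, the respiratory complex genes named here were close to 0: cob, for cytochrome b of complex III, had a mean of 0.076 TPM, cox3, for a subunit of complex IV, 0.137, and the complex I gene nad7 0.267. The 5 ATP synthase genes were summed to 2.3, 1.61 and 1.86 TPM in the wild-type libraries, 3.75, 5.69 and 9.51 in the nrpe1-labelled libraries, and 2.65, 2.36 and 3.35 in the hex-labelled libraries. The libraries labelled nrpe1 were above all others in this sum, but 4 of the 5 genes were too low to be tested. Against wild type alone, 30.3% of all tested genes were likewise higher in every library labelled nrpe1.

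**Figure D2:**
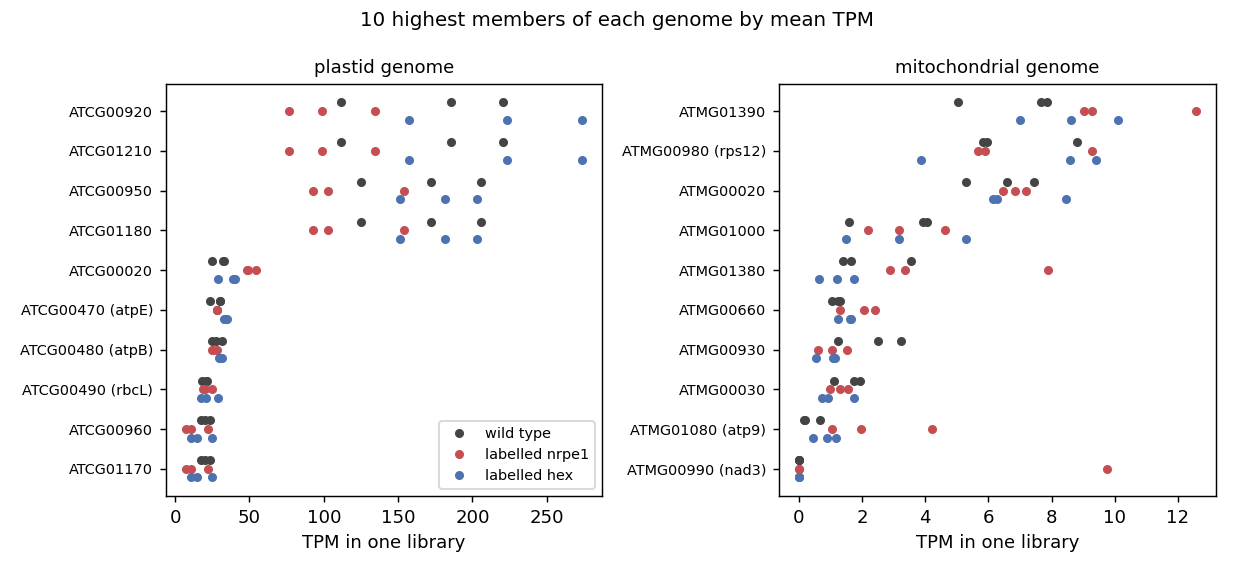
TPM in each library (x axis, 1 point per library, coloured by group) of the 10 plastid and the 10 mitochondrial genes with the highest mean (y axis). The 2 leading plastid pairs lie between 76.69 and 273.99 TPM, far above ATCG00020, and nad3 is above 0 in 1 library.

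Summed over each genome, plastid genes took 0.07836 to 0.1386% of all TPM. The plastid sum was 1356.32, 910.02 and 1183.14 TPM in the wild-type libraries (1150 ± 225.0, mean ± SD, n = 3), 1126.76, 853.72 and 783.59 in the nrpe1-labelled libraries (921.4 ± 181.3) and 1066.41, 1386.14 and 1335.49 in the hex-labelled libraries (1263 ± 171.9). All groups overlapped. The log2 ratio of the libraries labelled nrpe1 to wild type was -0.318, about as large as the spread between replicates (SD 0.283), and it became -0.01 without the 3 libraries that stood apart and 0.105 when genes with an identified second copy were left out. The log2 ratio of hex to wild type was 0.145, within the spread between replicates (SD 0.252), and it was -0.014 without wild-type replicate 2. That of hex to nrpe1 was 0.463 (SD 0.242), and it was 0.11 without the 3 libraries that stood apart.

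The mitochondrial sum, 0.003792 to 0.007719% of all TPM, did separate the libraries labelled nrpe1 from the others. It was 42.3, 37.92 and 47.26 TPM in the wild-type libraries (42.49 ± 4.673, n = 3), 67.67, 58.49 and 77.19 in the nrpe1-labelled libraries (67.78 ± 9.351) and 43.6, 49.87 and 44.23 in the hex-labelled libraries (45.9 ± 3.453). Every library labelled nrpe1 was above every other, while wild type and hex overlapped. Against wild type alone, the same held for 30.3% of all tested genes taken singly. The log2 ratio to wild type was 0.67, 0.677 without the 3 libraries that stood apart, and 0.572 to 0.772 with each library left out in turn. No test was made of a sum over chosen genes. The 3 libraries remained the highest when genes with an identified copy were left out (41.42, 40.78 and 55.41 TPM, against 25.5 to 34.48 in the other 6) and when the chromosome 2 partners were added (84.0, 78.92 and 105.53, against 54.01 to 72.66). In these bulk samples, more cells of a type and more RNA per cell cannot be told apart, and a sum of TPM also moves with all other transcripts.

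**Figure D3:**
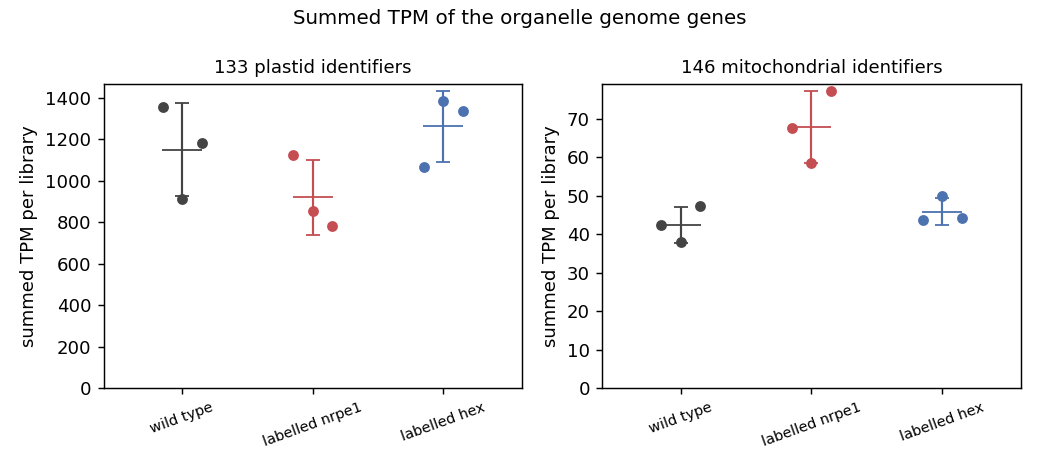
Summed TPM (y axis) of the 133 plastid and the 146 mitochondrial genes in each library, by group (x axis), with points for libraries and bars for the mean ± SD of 3. Plastid sums overlap between all groups, and mitochondrial sums of the libraries labelled nrpe1 (58.49 to 77.19) lie above the other 6 (37.92 to 49.87).

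The first comparison asked which organelle genes differed between the libraries labelled nrpe1 and wild type. A call needed a 2-fold change or more with an adjusted p under 0.05 (limma, Benjamini-Hochberg over all 17459 genes tested), which held for 3.94% of all genes. None of the 85 plastid genes and 1 of the 10 mitochondrial genes, atp9, was called. At an unadjusted p below 0.05 there were 22 plastid genes (25.9%) and 4 mitochondrial genes, against 44.3% of all genes. With no fold minimum, 6 plastid genes (7.06%) passed the adjusted threshold, 4 higher and 2 lower, against 23% of all genes (15.3% higher and 7.68% lower). The groups did not overlap for 18 plastid genes (21.2%) and 2 mitochondrial genes, against 49% of all genes. The median log2 change was -0.024 for plastid, 0.238 for mitochondrial and 0.085 for all tested genes.

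The 4 plastid genes that were higher were ATCG00020, psbB, ATCG00420 and psbG. ATCG00020 was at 32.63, 24.8 and 32.32 TPM in the wild-type libraries, 48.16, 49.32 and 54.28 in the nrpe1-labelled libraries, and 28.69, 40.24 and 38.8 in the hex-labelled libraries. It was the most abundant plastid gene without such a partner and was above both other groups in every library labelled nrpe1, with a log2 change of 0.75 on the log2(TPM + 1) scale (SE 0.150, adjusted p = 0.0376, limma). The photosystem II gene psbB was at 6.78, 6.1 and 7.45 TPM in the wild-type libraries, 9.27, 9.44 and 10.19 in the nrpe1-labelled libraries, and 6.42, 8.75 and 6.42 in the hex-labelled libraries. No library labelled nrpe1 overlapped the others, and the log2 change was 0.45 (SE 0.124, adjusted p = 0.0401, limma). ATCG00420 rose from 2.21 ± 0.255 to 3.51 ± 0.133 TPM, with no overlap and an adjusted p of 0.0376 (limma). The gene next to it in number, psbG, an older name for the NDH complex gene ndhK, rose from 2.16 ± 0.515 to 3.51 ± 0.4 TPM (adjusted p = 0.0396, limma).

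Of the plastid genes that were lower, rpl22 encodes a protein of the large ribosomal subunit. The gene rpl22 was at 2.43, 2.73 and 2.46 TPM in the wild-type libraries, 1.75, 1.61 and 0.74 in the nrpe1-labelled libraries, and 3.16, 2.68 and 2.63 in the hex-labelled libraries, a change of -0.61 (SE 0.173, adjusted p = 0.0417, limma). The libraries labelled nrpe1 were below all others. Without the 3 libraries that stood apart, which leaves 1 library labelled nrpe1, the plastid changes named here kept their direction (0.68 for ATCG00020, 0.502 for ATCG00420, 0.391 for psbG, 0.405 for psbB and -0.363 for rpl22), and none passed the threshold (adjusted p of 0.114 to 0.3, limma, where the lone library is assumed to vary like the other groups).

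**Figure D4:**
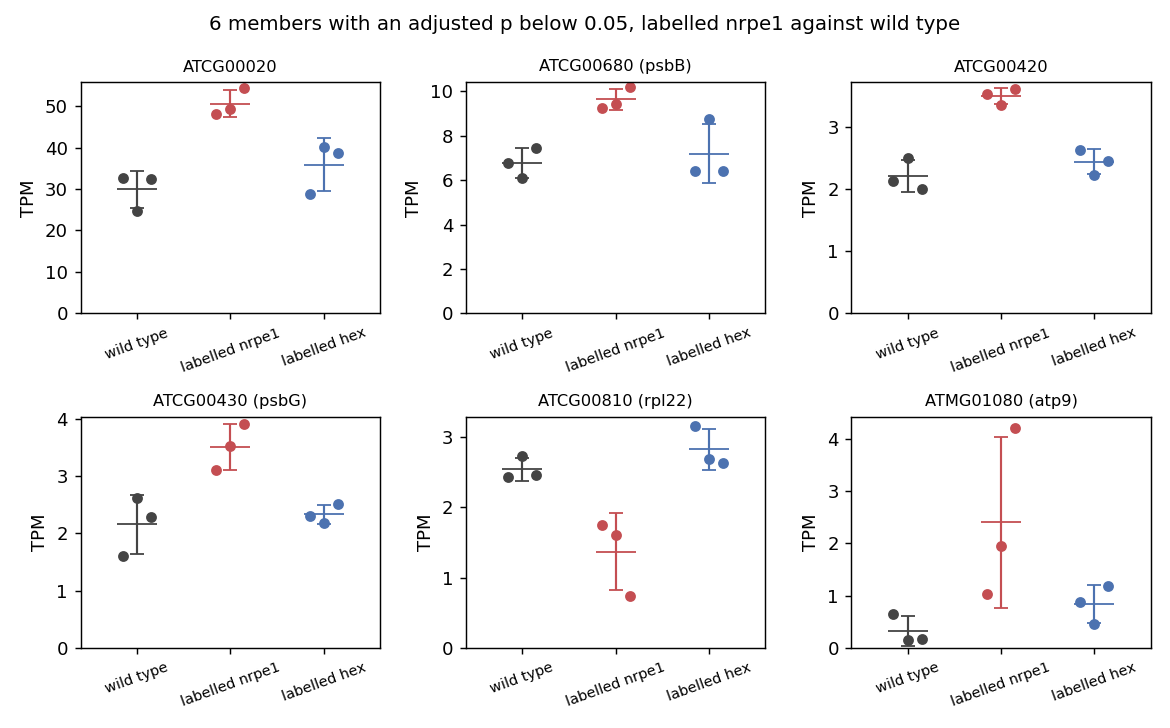
TPM (y axis) in each library of 6 organelle genes with an adjusted p below 0.05 between the libraries labelled nrpe1 and wild type, by group (x axis), with points for libraries and bars for the mean ± SD of 3. In every panel the libraries labelled nrpe1 and wild type do not overlap, and hex overlaps the libraries labelled nrpe1 only for atp9.

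Roles are known here only for the plastid genes with a name, and 53 of the 85 tested have none. Of all tested genes, 59% had a positive log2 change in this comparison. The 4 photosystem genes with a name had positive log2 changes, with medians of 0.319 for photosystem I and 0.342 for photosystem II, and of these psbB passed the threshold. The 4 rpo genes had negative changes with a median of -0.389, and none passed. Their summed TPM was 7.09 and 8.65 in nrpe1 replicates 2 and 3 and 8.26 in hex replicate 3, the libraries that stood apart, and 11.13 to 14.99 in the other 6. Those libraries were picked on all tested genes, the rpo genes included. Without the 3 libraries all 4 changes were still negative, with a median of -0.167, and none passed (adjusted p of 0.356 or more, limma). The gene rpoB, for the beta subunit, was at 6.75, 6.73 and 6.39 TPM in the wild-type libraries, 5.61, 3.47 and 4.19 in the nrpe1-labelled libraries, and 7.55, 6.49 and 4.39 in the hex-labelled libraries (log2 change from wild type -0.51, adjusted p = 0.0711, limma). Of 16 tested ribosomal protein genes, 8 were above and 8 below 0, with a median of -0.04. ATP synthase, Rubisco and cytochrome b6f genes all lay within the overlap of the groups, with medians of -0.033, 0.071 and 0.044. The tested genes without a name were divided into 25 above and 28 below 0. They held the 3 largest changes among plastid genes, none past the threshold: ATCG00310 (log2 change -1.55), ATCG00400 (-1.40) and ATCG00620 (1.17), each listed at 0 in at least 1 library and with overlapping groups.

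**Figure D5:**
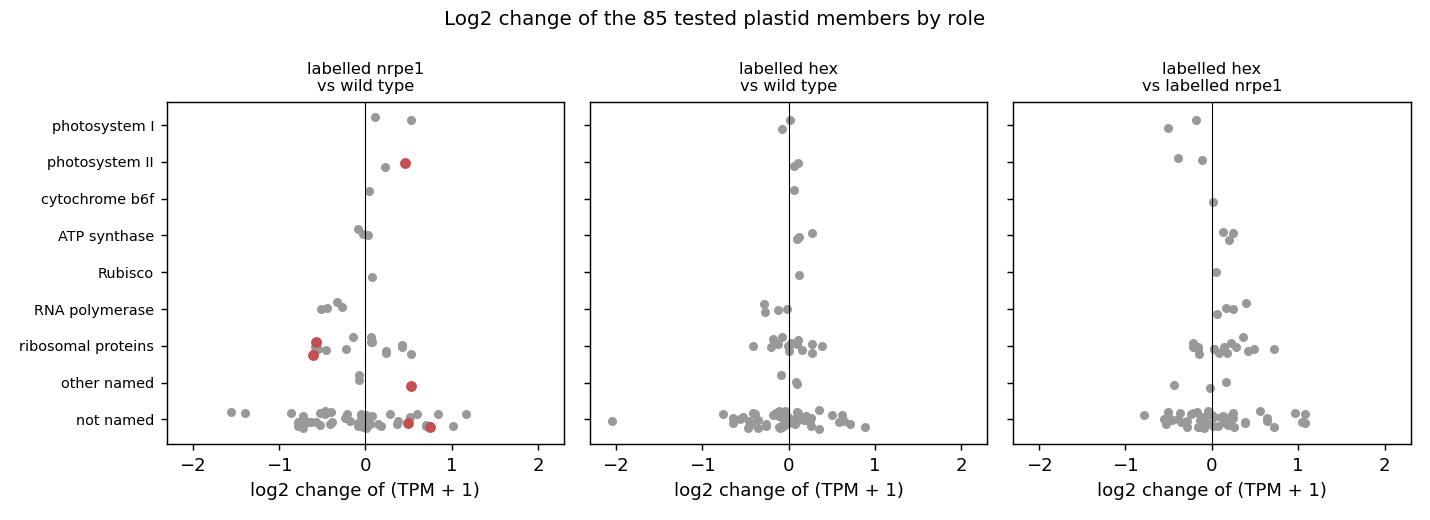
Log2 change of TPM + 1 (x axis) of the 85 tested plastid genes by role (y axis) in the 3 comparisons, with 1 point per gene and an adjusted p below 0.05 in red. The 4 RNA polymerase genes lie below 0 and the 4 named photosystem genes above 0 in the nrpe1-labelled libraries against wild type, and no gene is red in the other 2 panels.

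Of the mitochondrial genes, atp9 was the one called. It was at 0.66, 0.15 and 0.18 TPM in the wild-type libraries, 1.04, 1.96 and 4.21 in the nrpe1-labelled libraries, and 0.88, 0.46 and 1.18 in the hex-labelled libraries. The libraries labelled nrpe1 were above wild type without overlap but overlapped hex, and nrpe1 replicate 3 was the highest of all. The log2 change from wild type was 1.27 (SE 0.327, adjusted p = 0.0392, limma). Without the 3 libraries that stood apart, atp9 no longer reached 1 TPM in 3 libraries and was not tested, and the remaining nrpe1-labelled library was at 1.04 TPM against 0.15 to 0.66 in wild type. The call was lost when the gene was summed with its identical nuclear copy, which gave a change of 0.88 (adjusted p = 0.121, limma). It was lost as well with each wild-type library left out, with nrpe1 replicate 2 or 3 left out, and with hex replicate 1 or 2 left out (adjusted p of 0.0526 to 0.133). The value without nrpe1 replicate 3, in which pollen transcripts were found, was 0.907, and whether they had a part in the result was not tested. The remaining ATP synthase genes were too low to be tested. Of these, atp1 was at 0.26 to 0.65 TPM in the wild-type libraries and 0.76, 0.8 and 1.9 in the nrpe1-labelled libraries. For atp8 these were 0.36 to 0.5 and 0.7, 1.13 and 1.38, all equal to the values of its chromosome 2 copy. The atp9-like gene ATMG01090 was at 0.4 to 0.49 and at 0.98, 1.12 and 1.57. The groups overlapped for atp6-1, at 0, 0.37 and 0.2 and at 0.27, 0.68 and 0.45. Libraries labelled hex reached 0.77 for atp1 and 0.73 for atp8, so they overlapped those labelled nrpe1.

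The second comparison, of the libraries labelled hex with wild type, gave no call among 85 plastid and 10 mitochondrial genes, with or without the fold minimum (limma). Of all genes 0.321% were called, and 0.395% without the minimum. At an unadjusted p below 0.05 there were 3 plastid genes and 1 mitochondrial gene, against 4.74% of all genes. The groups did not overlap for 8 plastid genes (9.41%) and 1 mitochondrial gene, against 16% of all genes. The lowest adjusted p was 0.814 (limma), for ATCG00610 and ATMG00930, which have the same value in all libraries and share it with a chromosome 2 gene. They were at 1.25, 2.5 and 3.23 TPM in the wild-type libraries and 0.53, 1.09 and 1.15 in the hex-labelled libraries, which were all lower (log2 change -0.76). The ATP synthase gene atpE was at 29.96, 30.1 and 23.68 TPM in the wild-type libraries and 33.76, 32.62 and 34.72 in the hex-labelled libraries. These were all higher, by a small log2 change of 0.27 (SE 0.099, adjusted p = 0.87, limma). ATCG00310 was at 6.4 and 8.5 TPM in 2 wild-type libraries and listed at 0 in the third and in all hex-labelled libraries, so no fold is given. ATCG00620 and the mitochondrial gene ATMG01330 had log2 changes of 0.88 and 0.82 with overlapping groups (adjusted p = 0.928 each, limma). Median log2 changes were -0.024 for plastid, 0.058 for mitochondrial and 0.025 for all genes.

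The third comparison, of the libraries labelled hex with those labelled nrpe1, shares its libraries with the other 2 and gave no call either (limma), against 0.596% of all genes with the fold minimum and 0.848% without it. At an unadjusted p below 0.05 there were 15 plastid genes (17.6%) and 2 mitochondrial genes, against 28% of all genes. The groups did not overlap for 14 plastid genes (16.5%) and 1 mitochondrial gene, against 20% of all genes. The lowest adjusted p of a plastid gene was 0.107, for rpl22 (log2 change 0.72, limma). The leading plastid pair ATCG00920 and ATCG01210, with the values given above, had a change of 1.07 (SE 0.301, adjusted p = 0.124, limma). Of the mitochondrial genes, ATMG01380 had the lowest adjusted p, 0.122 (log2 change -1.31, limma). It was at 2.88, 3.36 and 7.88 TPM in the nrpe1-labelled libraries and 1.74, 1.2 and 0.63 in the hex-labelled libraries, with no overlap, and at 1.38, 1.65 and 3.55 in wild type. Without the 3 libraries that stood apart, ATCG00920 and ATCG01210 changed by 0.477 and ATMG01380 by -0.66. This leaves 1 library labelled nrpe1. ATCG01030 had a log2 change of 1.04 (adjusted p = 0.185, limma), but it was listed at 0 in 6 of the 9 libraries, all those labelled nrpe1 among them.

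Nuclear genes that act in organelle gene expression were read beside the organelle genes. Of 11 listed, 10 were tested, and between the libraries labelled nrpe1 and wild type 1 was called higher and 1 lower (limma, background 3.94%). RPOTp, the phage-type RNA polymerase of plastids, was at 14.5, 12.71 and 11.19 TPM in the wild-type libraries, 7.47, 2.73 and 2.77 in the nrpe1-labelled libraries, and 12.18, 9.98 and 3.57 in the hex-labelled libraries. The 3 libraries that stood apart were the lowest, and the log2 change from wild type was -1.48 (adjusted p = 0.0417, limma). SIG5, a sigma factor of the plastid-encoded polymerase, was at 9.02, 8.8 and 10.23 TPM in the wild-type libraries, 13.63, 24.68 and 28.68 in the nrpe1-labelled libraries, and 12.19, 12.12 and 20.24 in the hex-labelled libraries. The same 3 libraries were the highest, and the change was 1.11 (adjusted p = 0.039, limma). RPOTp and SIG5 were among the genes on which the 3 libraries were picked, so this order is not independent of that choice. Without these 3 libraries, which leaves 1 library labelled nrpe1, the changes were -0.70 for RPOTp and 0.50 for SIG5. Both were below the 2-fold minimum, so neither remained a call. SIG2, SIG6 and the plastid PNPase, an RNA-degrading enzyme, were lower by less than 2-fold (log2 changes -0.47, -0.48 and -0.66, adjusted p of 0.0392 to 0.0448, limma). Without the 3 libraries these were -0.32, -0.32 and -0.42.

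Nuclear photosynthesis and respiration genes gave no call in this comparison. At an adjusted p below 0.05 with no fold minimum, 7.68% of all genes were lower (limma). Of 18 photosynthesis genes tested, 5 were lower by that threshold and the median log2 change was -0.021. Of 9 genes of mitochondrial respiration, 2 were lower and the median was -0.337, opposite in sign to the mitochondrial sum. The summed TPM of the respiration genes was 780.31 to 890.65 in the 3 libraries that stood apart and 975.69 to 1127.96 in the other 6. These genes were among those on which the 3 libraries were picked. Without the 3 libraries, which leaves 1 library labelled nrpe1, the medians were -0.013 for photosynthesis and -0.105 for respiration genes, against 0.054 for all genes. The photosynthesis median covers changes from -0.691 (AT5G38430) to 0.138 (AT1G79040), so single genes remained lower. Neither list, nor that of organelle gene expression, held a call in the comparisons of the libraries labelled hex with wild type or with those labelled nrpe1 (limma).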

How the data were processed

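RNA was extracted and poly(A)-selected libraries were made from 1 ug of total RNA. The labels name floral tissue of 5 to 6 weeks and, in another place, leaves of seedlings of 3 weeks. The authors deposited TPM for 33602 genes in each of 9 libraries, with no counts, so depth and counting error are unknown. The submitters' processing notes list TAIR10, Bowtie2 2.1.0, SAMtools 1.9, MACS2 2.1.1 and RSEM 1.3.1 with no role. The table of nrpe1 replicate 2 is written 2 times, the second under a heading of hex, and the first was used. Peak lists hold the fold enrichment (a ratio) and the −log10 p-value and q-value that the authors' caller gave, and were used only to count organelle peaks.

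Genes that reached 1 TPM in 3 or more libraries were fitted together as log2(TPM + 1) with limma 3.58.1 (eBayes with a trend) in R 4.3.3, all 9 libraries in 1 model, with Benjamini-Hochberg adjustment over all 17459 genes. A call needed an adjusted p below 0.05 and a 2-fold change. A fold change on this scale understates that of low genes. The procedure was tested on simulated data. Copies were found with BLAST 2.17.0 at 95% identity over 80% of a gene, in RefSeq TAIR10.1, or by values identical in all 9 libraries. Plastid names and positions come from the annotation in the study's supplement, of which 33 of 33 had a start or end of a RefSeq coding sequence, and mitochondrial names from that supplement or the RefSeq annotation of matching genes. Named genes were the 10 with the highest mean per genome, the called genes without overlap or, where there were none, the 3 largest changes, a fixed list of symbols, and those with an adjusted p below 0.05. The values of 1 gene that this rule names are not reported here. Members and lists were chosen with earlier results of these data known. No source says that replicates came from separate plants, so p-values measure only the spread between these libraries. Alternatives were another pseudocount, other filters and scalings, a replicate block, only the libraries compared, no fold minimum, copies left out and each library left out. Leaving out the 3 libraries that stood apart and summing with chromosome 2 partners were chosen after seeing the data. Tables and plots were made in Python 3.11.15 with pandas 2.3.3, NumPy 2.4.6 and matplotlib 3.10.9.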

Additional observations from a re-analysis of the deposited data

Results flagged for a closer look

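The deposited ChIP-seq peak lists also hold peaks on the organelle chromosomes, which no comparison above used. FLAG ChIP of wild-type plants without a tagged protein gave 3 and 4 plastid peaks and 10 and 157 mitochondrial peaks in its 2 libraries. Of the FLAG ChIP libraries, more than in either control were found in MORC4-FLAG replicate 1 (9 plastid and 250 mitochondrial peaks), MORC4-FLAG replicate 2 (80 plastid peaks), MORC7-FLAG replicate 2 (588 mitochondrial peaks) and MORC7-FLAG in nrpd1 nrpe1 replicate 2 (29 plastid peaks). Replicates differed: MORC4-FLAG replicate 2 had 9 mitochondrial peaks, and MORC7-FLAG replicates 1 and 3 and MORC7-FLAG in nrpd1 nrpe1 replicate 1 had 0 in both genomes. With q values under 0.01 and more than 2-fold enrichment, MORC4-FLAG replicate 1 had 8 plastid and 220 mitochondrial peaks, MORC4-FLAG replicate 2 had 0 of each, MORC7-FLAG replicate 2 had 0 and 8, and MORC7-FLAG in nrpd1 nrpe1 replicate 2 had 3 and 0, against 4 and 11 in the second control. Pol II ChIP, for which no control was used here, gave 20 plastid and 105 mitochondrial peaks in wild type and 16 and 97 in hex. These counts have no test.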

How the results depend on the processing

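Summed mitochondrial TPM kept its direction in all 3 comparisons under each alternative tried, and moved by less than the spread between replicates. For summed plastid TPM, leaving out genes with a copy gave log2 ratios of 0.105 for nrpe1 against wild type and -0.064 for hex against nrpe1, and leaving out the 3 libraries that stood apart gave -0.01 and 0.11. Plastid calls between nrpe1 and wild type, 0 as reported, became 6 with no fold minimum, 2 with shares within each genome, 2 with the replicate block, and 0 to 3 with each library left out (1 without wild-type replicate 3, 3 without nrpe1 replicate 1). The mitochondrial call became 0 with no filter, with only the 6 libraries compared and summed with the chromosome 2 partner. It was also 0 at 5 TPM, with copies left out and without the 3 libraries, where atp9 was not among the genes counted, and it was 0 to 1 with each library left out (1 without nrpe1 replicate 1 or hex replicate 3). Calls with each library left out were 0 to 1 for plastid genes in hex against wild type (1 without wild-type replicate 3), and 0 to 2 for plastid and 0 to 2 for mitochondrial genes in hex against nrpe1 (2 of each without nrpe1 replicate 1). With shares within each genome, where each mitochondrial gene is read against a sum that was higher in nrpe1, ATMG00020 turned to -0.495 (adjusted p = 0.0376, limma), atp9 (ATMG01080) was at 0.952 (0.0514), and the call was ATMG00930 at -1.032 (0.0396). The causes were not tested.

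Adjusted p stayed below 0.05 in 10 of 19 alternatives for ATCG00020, 8 of 18 for ATCG00420, 8 of 19 for psbB (ATCG00680), 7 of 18 each for psbG (ATCG00430) and rpl22 (ATCG00810) and 6 of 17 for atp9 (ATMG01080). For the plastid genes, summing mitochondrial genes with chromosome 2 partners could not alter the change, and scaling to nuclear TPM hardly altered it. Both are counted among the alternatives that held, so these counts overstate the support. All genes called between nrpe1 and wild type were 688, against 954 with a pseudocount of 0.1, 113 with no filter, 105 with only the 6 libraries and 32 (without nrpe1 replicate 2) to 1606 (without nrpe1 replicate 1) with each library left out. Of 9 pairs of libraries with the same replicate number, 3 had correlations over 0.1 (range -0.351 to 0.596) and 4 of the 9 libraries correlated best with their own number, so the numbers were not taken to pair libraries. Leaving out rRNA genes was not run, since the sources used here tie none of the identifiers to an rRNA gene. Low TPM and unknown depth limit the mitochondrial genes most.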
